A study of Mus musculus with 27 samples.

Results

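Potassium channel genes were taken as all genes whose symbol has the form Kcn, a letter code and a number, and which had a probe set listed with that gene alone. The rule gave 87 of the 19937 genes measured. They comprised 15 voltage-gated pore genes of the Kcna to Kcnd groups, 10 modifier genes, 3 Kcnq genes, 7 Kcnh genes, 8 calcium- and sodium-activated pore genes, 15 inward rectifiers, 14 2-pore channels and 15 accessory subunits. Each of 84 members had 1 probe set. Kcna2, Kcnh8 and Kcnma1 had 2 each and were represented by the one with the higher mean over the 27 arrays.

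The study put RNA of 27 mouse samples on Affymetrix gene arrays, 1 array per sample, and compared immortalized neural stem cell lines with normal neural stem cells (NSCs) and tumors grown from such lines with subcutaneous tissue (SubQ). Of the 10 lines, 6 carried mutant p53 (lines 3, 28, 31, 59, 95 and 116) and 4 were labelled wild type (WT) for p53 (lines 119, 120, 123 and 331). The 2 NSC cultures were labelled WT. The 12 tumors were 3 each of lines 1, 31, 59 and 123, and the 3 SubQ samples were WT tissue. The labels of all samples name SCID mice of the strain CB17/ICR-Prkdcscid/IcrCrl as host background. These mice lack functional T and B cells and keep their innate immune cells, and a tumor can hold host cells beside the grafted line. The tumors were labelled WT and subcutaneous, without a p53 entry of their own, and line 1 had no culture array. Each line was measured once. The p-values therefore measure the spread between lines, between 2 NSC cultures, or between tumors of which 3 share a line.

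Potassium channels let potassium ions leave or enter a cell along their gradient and so set its resting voltage. Voltage-gated pores open on depolarization and end an action potential, and accessory subunits such as the Kcnip calcium sensors and the Kcnab proteins alter their surface level and inactivation. Inward rectifiers and 2-pore channels hold the resting voltage. Astrocytes use the rectifier pair Kcnj10 and Kcnj16 to take up potassium released by neurons. Calcium-activated channels link internal calcium to voltage, among them the large-conductance (BK) channel, whose pore is Kcnma1 and whose beta subunits are Kcnmb1 to Kcnmb4. In progenitors and tumor cells, potassium channels are also known to act on cell volume and on passage through the cell cycle.

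The deposited values are log2 levels. Cell and tissue arrays appeared to have been normalized as 2 sets: none of 180 pairs of 1 cell and 1 tissue array shared an equal value, while pairs within a set shared at least 28. No test was therefore made between the sets. As the values come without detection calls, the 1194 odorant and vomeronasal receptor genes served as background, and a member was counted as above background where it exceeded their 95th percentile on the same array. The SubQ arrays stood apart from the rest, with a standard deviation (SD) over genes of 0.87 to 1.02, against 1.63 to 1.87 on all other arrays. The neural stem cell markers were checked as well. In the NSCs all 9 measured markers lay above background, while 4 to 7 of 9 did so in a line. In bulk samples, fewer cells of a type and less RNA per cell cannot be told apart.

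Most channel genes lay near the receptor background. In the 10 lines 18 of the 87 members were above it on every array, and in the 2 NSC cultures 34 were. The share of other genes above background was 57.2% in the lines and 62.1% in the NSCs. The tumors had 16 members above background on all 12 arrays and the SubQ samples 6 on all 3. These are 18.4% and 6.90% of the members, where 52.3% and 9.89% of the other genes were above background. By tumor line the counts were 30 for line 1, 23 for line 31, 29 for line 59 and 26 for line 123. Members above background on every line and every tumor array were Kcna3, Kcng1, Kcng2, Kcnh3, Kcnh4, Kcnj11, Kcnj13, Kcnk12, Kcnk15, Kcnk4, Kcnmb3 and Kcns3. Among these are Kcnj11, the pore of the ATP-sensitive channel of insulin-secreting cells and neurons, Kcng1, Kcng2 and Kcns3, which modify Kcnb channels, and Kcnmb3, a BK beta subunit. On no array were 20 of the members above background, which is 23.0% of the members, where 18.6% of the other genes never were. Among the 20 were the cardiac rectifier Kcnj5, the sperm channel Kcnu1 and the BK beta subunits Kcnmb1 and Kcnmb2.

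The lines were compared with normal NSCs to find what sets immortalized cells apart. Here 20 of the 87 members fell and none rose at an adjusted p under 0.05 (limma, adjusted over all genes), which is 23.0% of the members. The groups did not overlap in 24 members, 20 lower and 4 higher, where 21.3% of all genes did not overlap. Over all genes 15% were called, 8.22% lower and 6.79% higher. The decreases ran over all 8 subfamilies and were most frequent among the voltage-gated pores, where 7 of 15 fell, against 3 of 15 accessory genes, 3 of 8 calcium- and sodium-activated pores, 2 of 15 inward rectifiers, 2 of 14 2-pore channels and 1 each of the modifiers, the Kcnq and the Kcnh genes. The median change of the 87 members was −0.05 on the log2 scale, and that of all genes −0.01. Of the 34 members above background in both NSCs, 17 fell and 16 stayed above background in every line. Of the 20 members that fell, 11 fell at least 2-fold and 5 at least 8-fold.

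The voltage-gated pores with large decreases were Kcna2, Kcnc1, Kcnd2 and Kcnd3. Kcna2, a low-threshold channel of axons, had levels of 6.59 to 6.91 with a median of 6.76 in the lines, against 9.79 and 9.94 in the NSCs. It fell by 3.12 ± 0.09 on the log2 scale (standard error, SE, as for all changes that follow; 10 lines and 2 NSCs; adjusted p = 5.85e-11). The lines were close together, and every line lay below both NSC cultures. Kcnc1, which allows fast repeated firing, had 6.07 to 6.95 with a median of 6.72 in the lines, against 9.86 and 9.55 in the NSCs, a log2 change of −3.02 ± 0.17 (adjusted p = 4.29e-08). Kcnd2 and Kcnd3 form the A-type channels of dendrites. Kcnd2 had 5.87 to 6.31 with a median of 6.06 in the lines, against 10.11 and 8.71 in the NSCs (log2 change −3.34 ± 0.24, adjusted p = 5.01e-07). Kcnd3 had 6.28 to 6.82 with a median of 6.46 in the lines, against 8.90 in both NSCs (log2 change −2.40 ± 0.12, adjusted p = 1.17e-08). For Kcnd2 the 2 NSC cultures differed from each other by more than the lines did, and for Kcnd3 they did not. In no line was Kcnd2 above the receptor background, and Kcnd3 was above it only in line 95.

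Among the accessory genes and inward rectifiers, Kcnip3, Kcnj16 and Kcnj10 fell. Kcnip3, a calcium sensor that binds the Kcnd pores and also acts as a repressor of transcription, fell furthest of all members. Its levels were 6.30 to 8.17 with a median of 6.83 in the lines, against 10.84 and 10.43 in the NSCs (log2 change −3.72 ± 0.34, adjusted p = 5.62e-06). The highest of the lines was line 119. The other calcium sensors of the Kcnd pores, Kcnip1, Kcnip2 and Kcnip4, were not called, with −0.18, 0.01 and 0.29 (adjusted p = 0.950, 0.954 and 0.108). Of the rectifiers, Kcnj16 had 5.61 to 6.76 with a median of 5.90 in the lines, against 9.67 and 9.51 in the NSCs (log2 change −3.60 ± 0.22, adjusted p = 9.09e-08). Its partner Kcnj10 had 6.24 to 6.61 with a median of 6.41 in the lines, against 7.87 and 8.30 in the NSCs (log2 change −1.66 ± 0.12, adjusted p = 3.61e-07). For both rectifiers the 2 groups did not overlap, and line 119 was again the highest of the lines.

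Kcnmb4, the BK beta subunit of neurons, had 6.50 to 7.68 in the lines, against 9.24 and 8.49 in the NSCs (log2 change −1.82 ± 0.29, adjusted p = 0.000716). Kcnv1, a modifier of Kcnb channels, fell by 1.44 ± 0.16 (adjusted p = 2.33e-05). The small-conductance channel genes Kcnn2 and Kcnn3 fell by 1.15 ± 0.34 (adjusted p = 0.0373) and 0.76 ± 0.22 (adjusted p = 0.031). Kcnn3 was the 1 called member whose groups overlapped, since line 59 had 8.31, between the 8.12 and 8.36 of the NSCs. The 2-pore channels Kcnk1 and Kcnk2, which carry leak current, fell by 1.06 ± 0.10 (adjusted p = 1.07e-05) and 0.90 ± 0.10 (adjusted p = 4.49e-05). Kcna3, Kcna6, Kcnab3, Kcnc4, Kcnh2, Kcnq3 and Kcnt1 fell by less, between 0.35 and 0.69. Among these are Kcnh2, which repolarizes the heart, Kcnq3, which carries the M current of neurons, and the sodium-activated Kcnt1. Kcnmb1, Kcnmb2 and Kcnmb3 changed by −0.19, 0.05 and 0.01 and were not called (adjusted p = 0.600, 0.857 and 0.971).

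**Figure D1:**
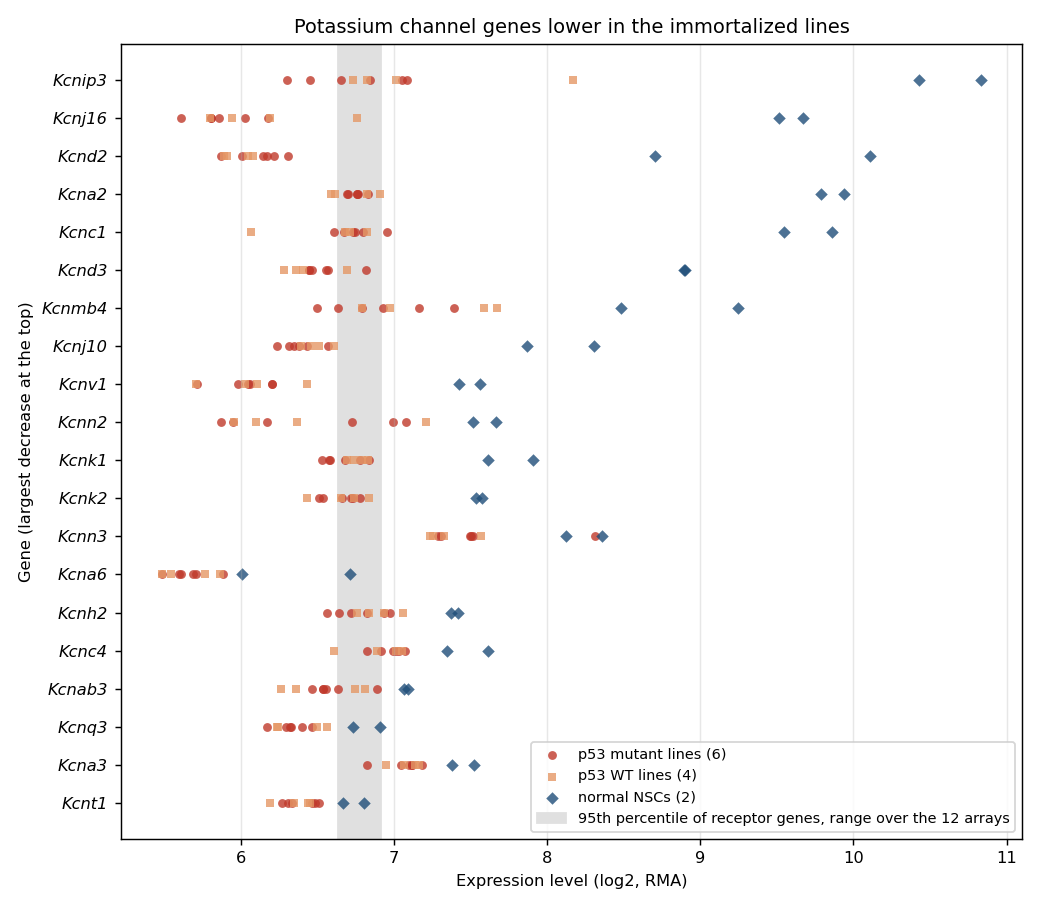
Log2 levels (x axis) of the 20 potassium channel genes that fell in the immortalized lines, 1 point per array and 1 gene per row, with p53 mutant lines as circles, p53 WT lines as squares and normal NSCs as diamonds. The grey band is the range over the 12 arrays of the 95th percentile of the receptor genes. For Kcnip3, Kcnj16, Kcnd2, Kcna2, Kcnc1 and Kcnd3 the NSCs lie at 8.71 or higher and all lines at 7.08 or lower, except line 119 in Kcnip3.

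In the NSCs 17 of the 20 members that fell were above background in both cultures. In the lines 3 of those 17 were above it on no array and 2, Kcna3 and Kcnn3, on every array. Where a gene lay at background in the lines, its change is bounded by that background. Without NSC 1 the count was 12 members and without NSC 2 it was 14, of which 13 were among the 20 and the other was Kcnmb1. The members lost in both cases were Kcna3, Kcnab3, Kcnh2, Kcnn2, Kcnn3 and Kcnt1. Kcnn2 also missed the threshold without line 95, line 120 or line 331. Markers of brain cell types moved with these genes: 8 of 10 astrocyte markers fell and 1 rose, and 7 of 12 neuron, 4 of 9 oligodendrocyte lineage and 4 of 9 neural stem cell markers fell. The astrocyte list averaged 7.13 to 7.54 per line, against 9.41 to 9.57 per NSC culture, with 5 to 7 of its 10 genes above background in a line and 8 of 10 in the NSCs. The neuron list averaged 6.22 to 7.18 per line, against 7.88 to 8.08 per NSC culture. The part of these markers in the decreases was not tested.

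Promoters are shown for those members that fell at least 2-fold and have a single window in the RefSeq table that ends right before the annotated start of the gene, so that a reader can see the sequence in front of genes that moved together. Each is the 250 bases before the start, on the plus strand of GRCm38.p6, 5′ to 3′, with capitals at the letters CAGCTG (a palindrome, the core of an E-box) and GGGCGG (a GC box, also marked where it lies on the other strand as CCGCCC).
Kcnd2, chr6:21215096-21215345: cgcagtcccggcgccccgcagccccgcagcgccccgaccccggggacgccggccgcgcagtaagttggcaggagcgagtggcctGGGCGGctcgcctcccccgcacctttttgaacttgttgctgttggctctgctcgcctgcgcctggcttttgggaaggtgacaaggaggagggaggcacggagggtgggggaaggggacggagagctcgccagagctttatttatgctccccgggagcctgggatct
Kcnd3, chr3:105451640-105451889: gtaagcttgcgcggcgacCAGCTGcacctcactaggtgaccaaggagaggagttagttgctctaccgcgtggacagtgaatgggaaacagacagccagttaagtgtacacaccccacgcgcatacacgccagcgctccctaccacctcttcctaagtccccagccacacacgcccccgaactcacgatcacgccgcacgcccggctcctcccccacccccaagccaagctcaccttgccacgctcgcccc
Kcnj10, chr1:172340960-172341209: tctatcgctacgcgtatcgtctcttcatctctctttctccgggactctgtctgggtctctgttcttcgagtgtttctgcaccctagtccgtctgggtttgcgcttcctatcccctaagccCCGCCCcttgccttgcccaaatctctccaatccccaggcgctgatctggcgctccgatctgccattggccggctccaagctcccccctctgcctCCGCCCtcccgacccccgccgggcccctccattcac

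These windows hold 22 CG dinucleotides for Kcnd2, 18 for Kcnd3 and 17 for Kcnj10, where the median of all 32851 promoter windows is 6. The A-type pore genes Kcnd2 and Kcnd3 share neither marked motif: Kcnd2 has 1 GC box and Kcnd3 has 1 E-box, while Kcnj10 has 2 GC boxes. Of the 87 members 66 had a window, and of the 20 that fell 15 had one, with 23 windows between them. Searched on both strands of the same 250 bases, CAGCTG was in 26.1% of those 23 windows, in 23.1% of the 91 windows of all members and in 13.0% of all windows. GGGCGG was in 43.5% of the 23 windows, in 44.0% of the 91 and in 32.7% of all windows. Counted by gene, CAGCTG was before 5 of the 15, 16 of the 66 and 3979 of all 27025 genes with a window. GGGCGG was before 10 of the 15, 39 of the 66 and 9555 of the 27025. A gene can have several windows, and the members that fell are part of all members, so neither a likeness nor a difference is read from these shares. The left arm of the binding site of the repressor Rest, TTCAGCACC, was in none of the 91 windows and in 0.301% of all windows, and the right arm was in none of the 91 and in 0.0974% of all windows. Only exact letters within the 250 bases were searched. At shares this low, none in 91 windows was likely beforehand and does not show a lack of Rest sites. The motifs were chosen with the decreases known, and the shares are descriptions.

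Among genes that work with potassium channels, Rest, a repressor of neuronal genes, rose by 0.56 ± 0.16 (adjusted p = 0.0305), with 9.11 to 9.91 and a median of 9.55 in the lines, against 8.97 to 9.04 in the NSCs. It was the 1 gene of 12 BK gamma and other channel partners that was called. Among 11 sodium-potassium pump genes Fxyd5 rose by 2.81 ± 0.62 (adjusted p = 0.00707), and Atp1b2, the pump subunit of astrocytes, and Fxyd6 fell by 3.83 ± 0.13 and 0.54 ± 0.12 (adjusted p = 2.50e-10 and 0.0084). Voltage-gated sodium channels had 3 of 11 genes lower, with log2 changes of −1.12 for Scn3b, −0.97 for Scn8a and −0.39 for Scn1a. Calcium channels had 2 of 17 lower, with −0.82 for Cacna1h and −0.50 for Cacna1b. Of 6 cation-chloride cotransporters Slc12a7 rose by 0.42, and of 11 chloride channel genes Ano6 rose by 0.67 and Lrrc8b fell by 1.03. None of the 3 HCN genes was called.

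Within the lines, the 6 with mutant p53 were compared with the 4 with WT p53. No member was called by limma, and 5 of 87 had an unadjusted p under 0.05, where 8.53% of all genes did. Over all genes 0.0201% were called, 0.00502% higher and 0.015% lower. The members with the widest spread over the lines were Kcnt2, a sodium-activated pore, and Kcnip1, a calcium sensor of the Kcnd pores. Kcnt2 had levels of 7.48, 5.39, 6.44, 5.59, 5.27 and 5.99 in the mutant lines, in the order 3, 28, 31, 59, 95 and 116. In the WT lines it had 9.40, 6.66, 6.26 and 9.12, in the order 119, 120, 123 and 331. Lines 119 and 331 were thus above every other line, and the groups overlapped (mutant minus WT −1.83 ± 0.66, adjusted p = 0.472). Kcnip1 had 10.01, 7.21, 9.93, 10.33, 8.99 and 8.95 in the mutant lines, against 6.57, 9.46, 8.14 and 5.94 in the WT lines (mutant minus WT 1.71 ± 0.74, adjusted p = 0.567). Here lines 119 and 331 were the lowest of the 10. For the rectifier gene Kcnj15 the groups did not overlap, with 6.41 to 6.55 in the mutant lines, against 6.59 to 7.39 in the WT lines (−0.44 ± 0.13, adjusted p = 0.419), where 1.69% of all genes did not overlap. The other members with an unadjusted p under 0.05 were the 2-pore genes Kcnk5 (−0.74) and Kcnk15 (0.22). The BK genes Kcnma1, Kcnmb1, Kcnmb2, Kcnmb3 and Kcnmb4 changed by 0.23, 0.13, 0.14, 0.06 and −0.36 (adjusted p = 0.881, 0.768, 0.758, 0.903 and 0.714).

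Kcnma1 needs its probe sets described before its values in the tumors. The probe set taken by the rule lists 4 accessions, and none is a RefSeq transcript of Kcnma1. None of its 14 named neighbours within 100 probe set numbers lies on chromosome 14, where Kcnma1 lies, and chromosome 8 is the commonest among them. It was the 1 probe set of the members' 90 whose neighbours lay mostly on another chromosome. The other probe set listed with Kcnma1 has 17 RefSeq transcripts of the gene, and its 9 named neighbours all lie on chromosome 14. What the first one measures is thus not settled by the annotation, and both are given. The rule took the first for its mean over the 27 arrays, 6.55 against 5.26 for the other. Over the 21 arrays other than tumors of lines 59 and 123, its mean was 5.11 against 5.42, so it was chosen through the tumors in which it is high. Its values between tumor lines are therefore given as a description, without a p-value. The main counts of called members among tumor lines are also given without this probe set.

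On the probe set taken by the rule, tumors of line 59 had 11.03, 12.62 and 13.13 and tumors of line 123 had 12.23, 7.53 and 13.00. Tumors of line 1 had 4.45, 4.27 and 3.22, and tumors of line 31 had 4.36, 4.38 and 6.47, against 5.43, 5.39 and 6.07 in SubQ tissue. All 6 tumors of lines 59 and 123 lay above every other array of the series. In culture, line 59 had 5.22 and line 123 had 4.80, and the 10 lines ranged from 4.80 to 6.25, against 5.05 ± 0.07 in the NSCs (SD, n = 2). The probe set that matches Kcnma1 transcripts gave 4.23, 4.81 and 4.52 in tumors of line 59 and 4.89, 5.25 and 4.49 in tumors of line 123. Its values were 4.76 to 5.19 in tumors of line 1 and 4.48 to 4.84 in tumors of line 31, against 5.36 to 5.98 in SubQ tissue. On it no tumor lay above the SubQ tissue and none above its receptor background.

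**Figure D2:**
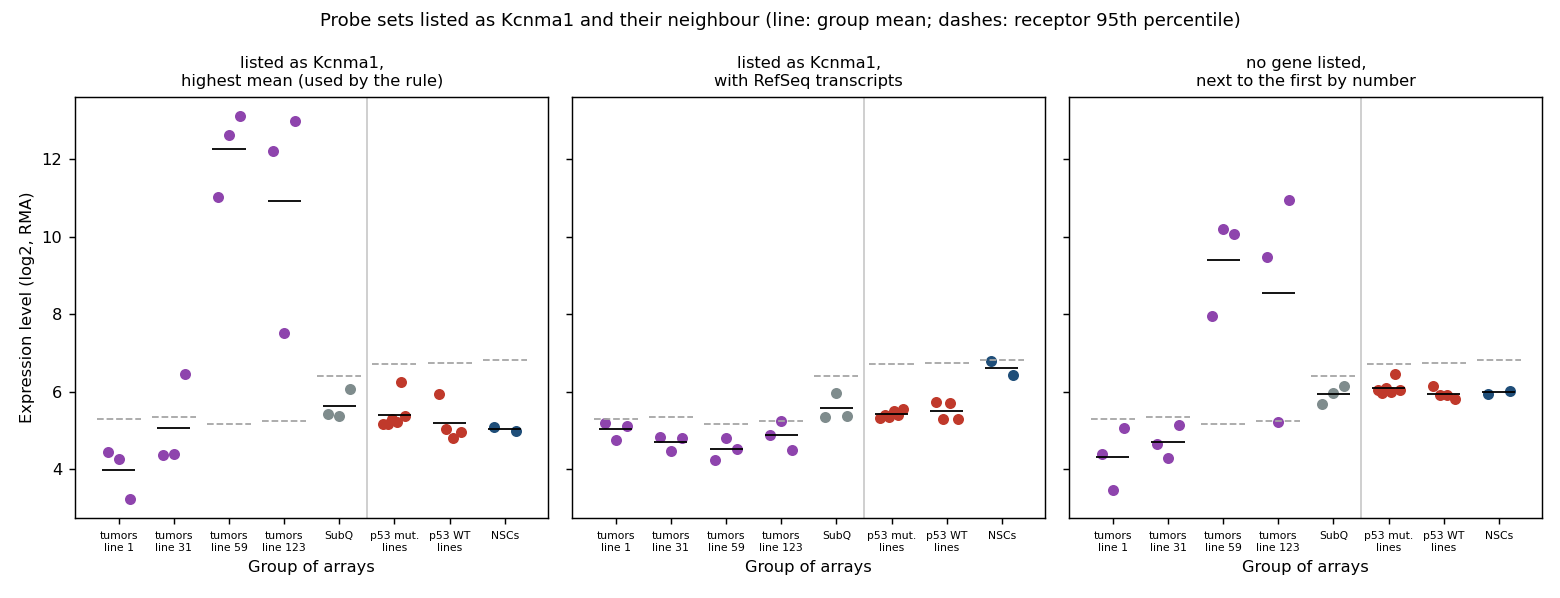
Log2 levels (y axis) by group (x axis) of both probe sets listed with Kcnma1 (left and middle) and of an unlisted probe set 4 numbers after the first (right), 1 point per array, with the group mean as a bar and the mean receptor 95th percentile as dashes. Tumors of lines 59 and 123 reach 13.13 on the left, stay at or below 5.25 in the middle and reach 10.95 on the right.

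With the probe set of the rule, Kcnma1 was not called in lines against NSCs (0.28 ± 0.29, adjusted p = 0.653) or in tumors against SubQ tissue (2.43 ± 2.07, adjusted p = 0.292). With the other probe set it fell in both, with −1.15 ± 0.14 in lines against NSCs (adjusted p = 5.19e-05) and −0.79 ± 0.20 in tumors against SubQ tissue (adjusted p = 0.00161). On that probe set no line, tumor or SubQ array was above background, and of the 2 NSCs 1 was. The median receptor gene changed by −1.24 in tumors against SubQ tissue, so the −0.79 is a change among values at background. The lines had 5.30 to 5.75 on that probe set, against 6.80 and 6.42 in the NSCs, with all lines below both NSCs. Counted with that probe set, the members that fell in the lines were 21. The beta subunit that fell in the lines, Kcnmb4, had 4.85 to 6.43 in the tumors, against 5.43 to 5.68 in SubQ tissue, and was not called there (0.06 ± 0.21, adjusted p = 0.804).

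Tumors were next set against subcutaneous tissue. Of the 87 members, 65 fell and 5 rose, 80.5% in all, where 76.5% of all genes were called, 45.8% lower and 30.7% higher. By direction, 74.7% of the members fell and 5.75% rose. The median change was −0.71 for the members, −0.28 for all genes and −1.24 for the receptor genes. The receptor 95th percentile was 4.99 to 5.44 on the tumor arrays, against 6.30 to 6.49 on the SubQ arrays. Of the 65 members that fell, 40 were above background on no SubQ array, and 13 fell further than the median receptor gene. Above background on every tumor were 11 of the 65, and on every SubQ array 6. Kcng2, Kcnh3, Kcnh4, Kcnj11, Kcnk12 and Kcnmb3 were above it on every tumor but not on every SubQ array. Their levels fell, but not below the background of the tumor arrays. By subfamily 14 of 15 voltage-gated pores, 8 of 10 modifiers, 12 of 14 2-pore channels, 10 of 15 inward rectifiers and 8 of 15 accessory genes fell.

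The 6 members above background on every SubQ array, Kcna2, Kcna3, Kcnh2, Kcnj14, Kcnk15 and Kcns3, all fell in the tumors. Of these, Kcna3 and Kcnk15 missed the threshold with tumor line as a random block, with 1 mean per tumor line, with array quality weights, on centred arrays and without SubQ 1 or SubQ 2. Kcna3 also missed it without any one tumor of line 59 and without tumor 123-1 or 123-3, and Kcns3 with array quality weights and without SubQ 3. Kcnj14, an inward rectifier, fell furthest of all members. Its levels were 4.66 to 6.21 with a median of 5.60 in the tumors, against 8.06, 6.86 and 7.06 in SubQ tissue (log2 change −1.84 ± 0.32, adjusted p = 4.96e-05). Kcna2 had 5.45 to 5.95 in the tumors, against 7.74, 6.96 and 6.66 in SubQ tissue (−1.43 ± 0.17, adjusted p = 8.54e-07). Its other probe set had 4.58 to 5.47 in the tumors, against 6.11, 6.23 and 5.51 in SubQ tissue. On that probe set every SubQ array was below background. For Kcnj14 and Kcna2 the groups did not overlap, as for 43 of the members that fell and 2 of those that rose, where 52.5% of all genes did not overlap. The next largest decreases were those of Kcnj16 (−1.72), the 2-pore channel Kcnk9 (−1.65), the modifiers Kcns1 (−1.57) and Kcns2 (−1.37), the Kcnd sensors Kcnip2 (−1.45) and Kcnip3 (−1.43), Kcnd3 (−1.41), Kcna6 (−1.36), Kcnj5 (−1.29) and Kcnu1 (−1.29), with SE of 0.12 to 0.21. None of these was above background on every SubQ array. Kcns1, Kcns2, Kcnip2, Kcna6, Kcnj5 and Kcnu1 were above it on no array of the series, so theirs are changes among values at background. The median receptor gene changed by −1.24. Skeletal muscle markers (9 of 12) and adipocyte markers (9 of 9) fell in the tumors as well. So did lymphocyte (6 of 6), keratinocyte (6 of 10) and oligodendrocyte lineage markers (6 of 9). Astrocyte (6 of 10, with 2 higher), neuron (6 of 12, with 2 higher), neural stem cell (5 of 9, with 2 higher) and mural markers (5 of 12, with 2 higher) were mixed. Over all genes 45.8% fell. The part of any of these markers in the decreases was not tested.

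The members that rose were Kcne3, Kcnj13, Kcnj8, Kcne4 and Kcnip4. Kcne3, which holds Kcnq1 channels open in epithelia, had 4.80 to 7.41 with a median of 6.90 in the tumors, against 5.89, 5.63 and 5.18 in SubQ tissue (1.11 ± 0.43, adjusted p = 0.0252). Tumors 59-3 and 123-2, with 5.35 and 4.80, lay below the highest SubQ sample and the other 10 above it. Kcnj13, a rectifier of epithelia, had 6.76 to 7.65 in the tumors, against 6.24, 6.66 and 5.98 in SubQ tissue (0.87 ± 0.18, adjusted p = 0.000343). Kcnj8, the pore of the ATP-sensitive channel of blood vessels, had 5.51 to 7.02 in the tumors, against 4.97, 5.38 and 5.96 in SubQ tissue (0.67 ± 0.27, adjusted p = 0.0305). Kcne4 and Kcnip4 rose by 0.52 ± 0.16 and 0.45 ± 0.14 (adjusted p = 0.00623 and 0.00661). Only for Kcnj13 and Kcnip4 did the groups not overlap. Kcne3 missed the threshold without SubQ 2 or SubQ 3 and Kcnj8 without SubQ 1 or SubQ 2. With tumor line as a random block Kcne3 had an adjusted p of 0.0626, and with 1 mean per tumor line Kcnj8 had one of 0.0653. Kcnj13 changed by 0.36 after quantile normalization (adjusted p = 0.221), and with array quality weights 1 member rose. Macrophage markers moved with these members: 11 of 12 rose, and the list averaged 7.95 to 9.28 per tumor, against 6.03 to 6.49 per SubQ sample. Fibroblast markers rose in 7 of 10 cases, with 7.94 to 9.08 per tumor, against 6.99 to 7.51 per SubQ sample. Of 10 endothelial markers 4 rose and 1 fell, and the list averaged 5.99 to 7.24 per tumor, against 5.68 to 5.86 per SubQ sample. The part of these markers was not tested.

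**Figure D3:**
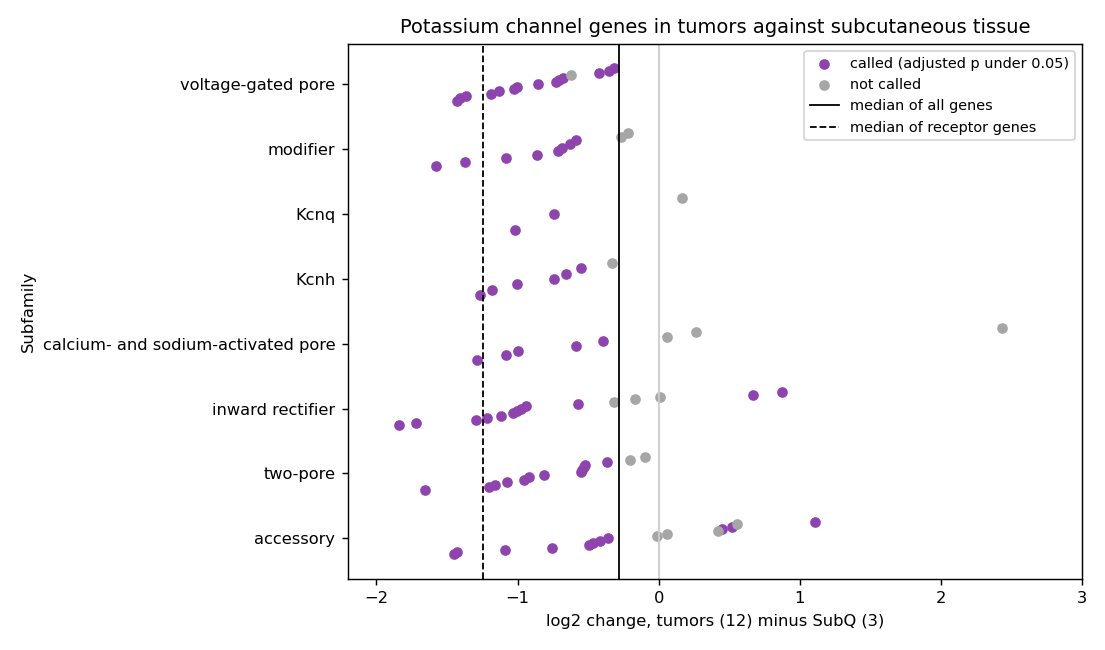
Log2 change in tumors minus SubQ tissue (x axis) of each of the 87 members, grouped by subfamily (y axis) and ordered by change within it, with called members in purple. The solid line marks the median change of all genes (−0.28) and the dashed line that of the receptor genes (−1.24); 5 called members lie above 0 and 65 below, and the uncalled point at 2.43 is Kcnma1 on the probe set taken by the rule.

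The BK beta subunits Kcnmb1, Kcnmb2 and Kcnmb3 fell in the tumors by 0.76 ± 0.21, 1.09 ± 0.21 and 0.36 ± 0.16 (adjusted p = 0.00316, 0.000142 and 0.0473). Kcnmb1 and Kcnmb2 were above background on no array, and the median change of the receptor genes, −1.24, was larger, so these are changes among values at background. After quantile normalization neither was called (−0.20, adjusted p = 0.594 and −0.55, adjusted p = 0.119). The call of Kcnmb1 was also lost without SubQ 1, and Kcnmb3 missed the threshold when any of 12 single libraries was left out. Of the partner lists, 10 of 11 sodium channel genes, 11 of 17 calcium channel genes and 3 of 3 HCN genes fell. The chloride channel genes were split, with 5 of 11 higher and 4 lower. Among those that rose were Ano6, a lipid scramblase and ion channel (3.07 ± 0.34), and Lrrc8c, a subunit of the volume-regulated chloride channel (2.28 ± 0.17). Cacna2d1, an accessory calcium channel subunit, rose by 2.02 ± 0.32.

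The 4 tumor lines were then compared with each other. By a moderated F test 4 members passed the threshold beside Kcnma1, namely Kcnip1, Kcnh7, Kcnab1 and Kcnk10 (adjusted p = 0.00555, 0.0103, 0.0205 and 0.0462). With Kcnma1 counted they were 5, or 5.75% of the members, where 5.07% of all genes passed. The probe set of Kcnma1 was chosen through these tumors, so its pass carries no weight, and it did not pass on its other probe set. With Kcnma1 counted, the count was 3 without tumor 1-3, 31-1 or 59-1 and 8 without tumor 31-3. Tumors of line 1 against the other lines had 6 called members (4.62% of all genes, 2.33% higher and 2.29% lower) and tumors of line 59 had 4 (1.17% of all genes, 0.752% higher and 0.416% lower), Kcnma1 among them in both; with its other probe set the counts were 5 and 3. Tumors of lines 31 and 123 had none by limma, with 7 and 2 members at an unadjusted p under 0.05, or 8.05% and 2.30% of the members, where 14.2% and 12.2% of all genes had one (1.39% of all genes called for line 31, 0.627% higher and 0.762% lower, and 0.848% for line 123, 0.627% higher and 0.221% lower). The groups did not overlap in 5.11% of all genes for line 1, 2.33% for line 31, 2.54% for line 59 and 2.24% for line 123.

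Kcnip1 was called in line 1 and in line 59. Its levels were 4.39, 4.16 and 4.61 in tumors of line 1, 6.19, 6.50 and 5.71 in tumors of line 31, 7.73, 6.15 and 7.39 in tumors of line 59, and 6.93, 5.91 and 6.35 in tumors of line 123. All 3 tumors of line 1 lay below every other tumor and below the receptor background. The difference was −2.15 ± 0.30 for line 1 against the other lines (adjusted p = 0.00184) and 1.45 ± 0.30 for line 59 (adjusted p = 0.0416). The second call was lost when any of 8 single tumors was left out. In culture Kcnip1 had 10.33 in line 59, 9.93 in line 31 and 8.14 in line 123, whereas the tumors of lines 31 and 123 overlapped.

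In tumors of line 59, Kcnh7, a channel of the ether-a-go-go related group, had 5.40, 5.35 and 6.16, against 4.12 to 5.24 in the other 9 tumors (1.07 ± 0.17, adjusted p = 0.0107). Every tumor of line 59 was above every other tumor. Kcnab1, a beta subunit that speeds inactivation of Kcna channels, had 6.81, 6.60 and 6.42, against 5.14 to 6.47 in the others (0.94 ± 0.17, adjusted p = 0.0222). Tumor 123-1 overlapped with line 59, and the call was lost without any one tumor of line 59 or without tumor 1-3. Of the 4 calls of line 59, 2 were left without tumor 1-3, 59-1 or 59-2 and 1 without tumor 59-3.

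Tumors of line 1 were higher in 4 members. Kcnab2, another beta subunit of Kcna channels, had 5.97, 7.13 and 6.32 in line 1, against 5.28 to 5.82 in the other tumors (0.95 ± 0.20, adjusted p = 0.0188). Kcnj15 had 6.11, 6.25 and 6.03, against 4.98 to 5.78 (0.77 ± 0.16, adjusted p = 0.0173). Kcnj8 had 6.42, 7.02 and 6.62, against 5.51 to 6.29 (0.77 ± 0.18, adjusted p = 0.0334), and Kcnk10, a leak channel opened by stretch, had 5.17, 5.35 and 5.47, against 4.45 to 4.93 (0.57 ± 0.11, adjusted p = 0.0156). All 3 tumors of line 1 were above all other tumors in these 4 genes. For Kcnk10 only tumors 1-2 and 1-3 were above the receptor background, so its difference lies near background. Abcc9, the sulfonylurea receptor that pairs with Kcnj8, was higher in line 1 as well, with 7.02 to 7.52, against 6.32 to 6.96 in the other tumors (0.74 ± 0.16, adjusted p = 0.0240). The calls of the 4 channel genes were lost without tumor 1-2, which left 2 of the 6 members called, and without tumor 1-3, which left 1. Kcnj8 also missed the threshold without tumor 31-1, 123-2 or 123-3. Endothelial markers averaged 6.997 to 7.24 in tumors of line 1, against 5.99 to 6.54 in the other tumors, with 2 of 10 called higher, and no mural marker of 12 was called. Fibroblast markers averaged 8.81 to 9.08 in tumors of line 1, against 7.94 to 8.57 in the other tumors, with 2 of 10 called higher. Macrophage markers averaged 7.95 to 8.22 in tumors of line 1, against 8.21 to 9.28 in the other tumors, with 3 of 12 called lower. Their part was not tested.

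**Figure D4:**
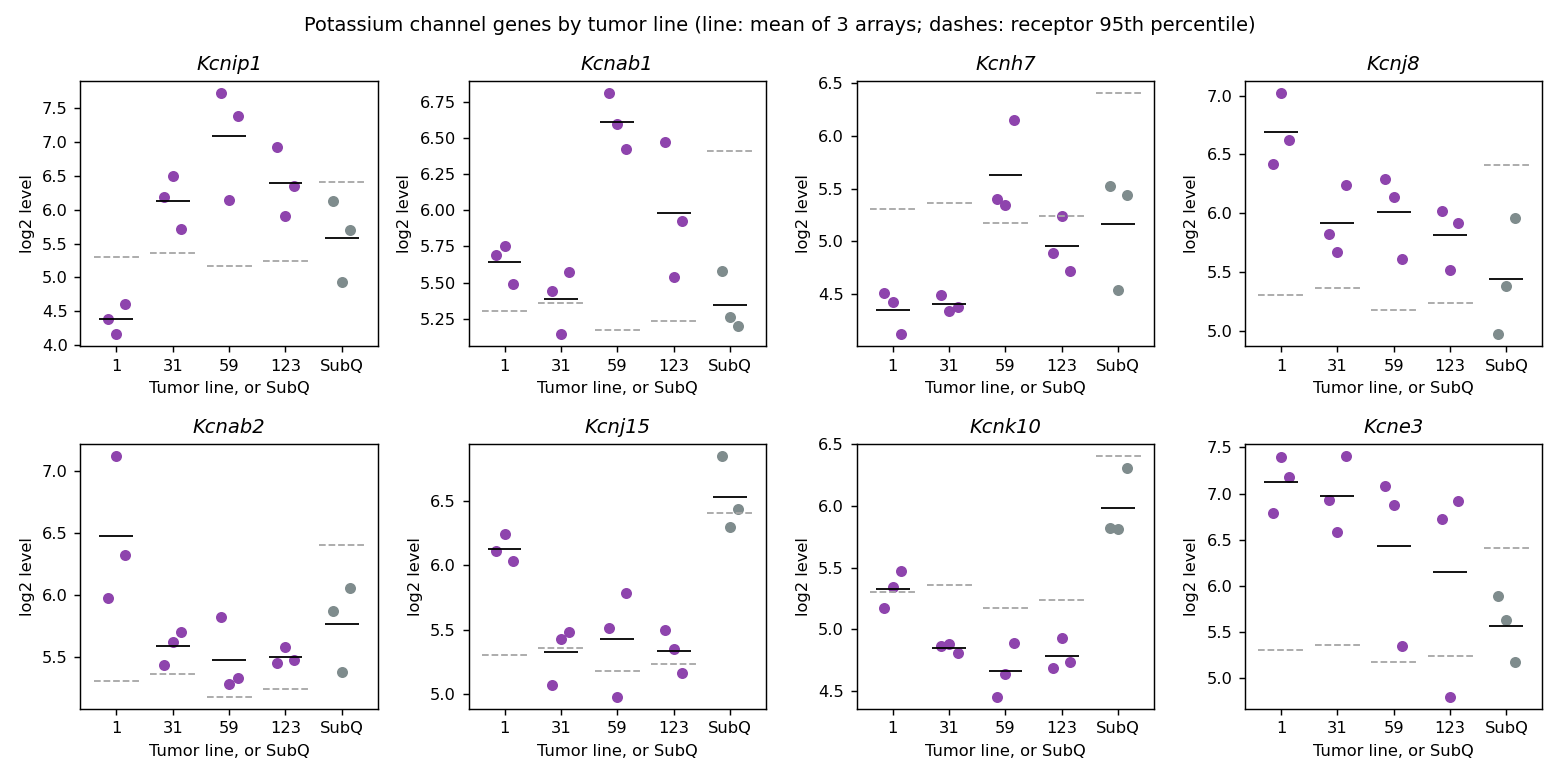
Log2 levels (y axes) of 8 potassium channel genes in tumors of lines 1, 31, 59 and 123 and in SubQ tissue (x axes), 1 point per array with the mean of 3 as a bar and the receptor 95th percentile as dashes. Kcnip1 is at most 4.61 in line 1 and at least 5.71 in all other tumors, while Kcnj8, Kcnab2, Kcnj15 and Kcnk10 are highest in line 1 among the tumors.

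For Kcnma1 on the probe set of the rule, the differences from the other lines were −5.43 for line 1, −3.98 for line 31, 5.60 for line 59 and 3.82 for line 123. Without tumor 123-2, the lowest of its line, line 123 gave 5.51. On the other probe set they were 0.33, −0.10, −0.35 and 0.12, none of them called, with the sign turned for lines 1 and 59. None of the beta subunit genes was called in any tumor line. Of the partner genes, the calcium channel pore Cacna1c was higher in line 1 (0.72 ± 0.13) and lower in line 59 (−1.11 ± 0.13), and the chloride channel Ano1 was higher in line 123 (1.86 ± 0.28) and lower in line 31 (−1.29 ± 0.28).

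Lines 31, 59 and 123 had both 3 tumors and 1 culture, and their 12 arrays were quantile normalized together for a description without a test. In 13 members all 9 tumors lay above their own culture and in 21 all lay below, 39.1% of the members, where 39.6% of all genes had all tumors on 1 side (15.7% above, 23.9% below). On centred arrays the counts were 14 and 17. With the deposited values, 0 and 82 members did so. The array medians were 5.47 to 5.57 in the tumors, against 7.02 to 7.08 in the cell cultures. Kcne3 had 7.42, 6.95 and 7.86 in tumors of line 31, against 5.07 in its culture, and 7.35, 7.23 and 5.68 in tumors of line 59, against 4.69. In tumors of line 123 it had 7.13, 5.11 and 7.26, against 4.70. The differences of the means were 2.34, 2.07 and 1.79, and Kcne3 was above its culture with the deposited values too, by 0.61 on average.

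Among the members with all 9 tumors on 1 side, those with the largest mean differences above culture after Kcnma1 and Kcne3 were Kcnc2 (1.03), Kcnn4 (0.87), Kcnj8 (0.85), Kcnj10 (0.55), Kcnh2 (0.52), Kcne4 (0.52), Kcnk6 (0.49) and Kcna3 (0.49). Kcnn4 is the calcium-activated channel of blood and immune cells and Kcna3 the main voltage-gated channel of T cells. Among the same members, those furthest below culture were the modifier Kcnf1 (−1.15), the 2-pore channel Kcnk10 (−1.02), Kcnc1 (−0.82), the 2-pore channels Kcnk5 (−0.72) and Kcnk18 (−0.58), Kcna10 (−0.53), Kcnd2 (−0.52), Kcnj12 (−0.47), Kcnq5 (−0.46) and Kcnab3 (−0.41). Of these, Kcnk18 and Kcna10 were above the receptor background on no array of the series, and Kcnd2 was above it in no line. The differences of Kcnk18, Kcna10 and Kcnd2 are thus from cultures at background. Kcnab3 was above it in 1 of the 10 lines. Of the members above culture, Kcnj10 was above background in no line. Kcnc2, Kcnj10 and Kcne4 were not above it on every tumor of line 31, of line 59 or of line 123, so these differences lie near background. Some members with tumors on both sides had mean differences as large, such as Kcnip1 (−1.28), Kcnn3 (−0.84) and Kcnj2 (0.89), which were named after their values were seen. Kcnf1 had 4.77, 4.54 and 4.86 in tumors of line 31, against 6.06 in its culture, and 4.94, 4.51 and 5.25 in tumors of line 59, against 5.51. In tumors of line 123 it had 4.64, 4.98 and 5.10, against 6.41.

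**Figure D5:**
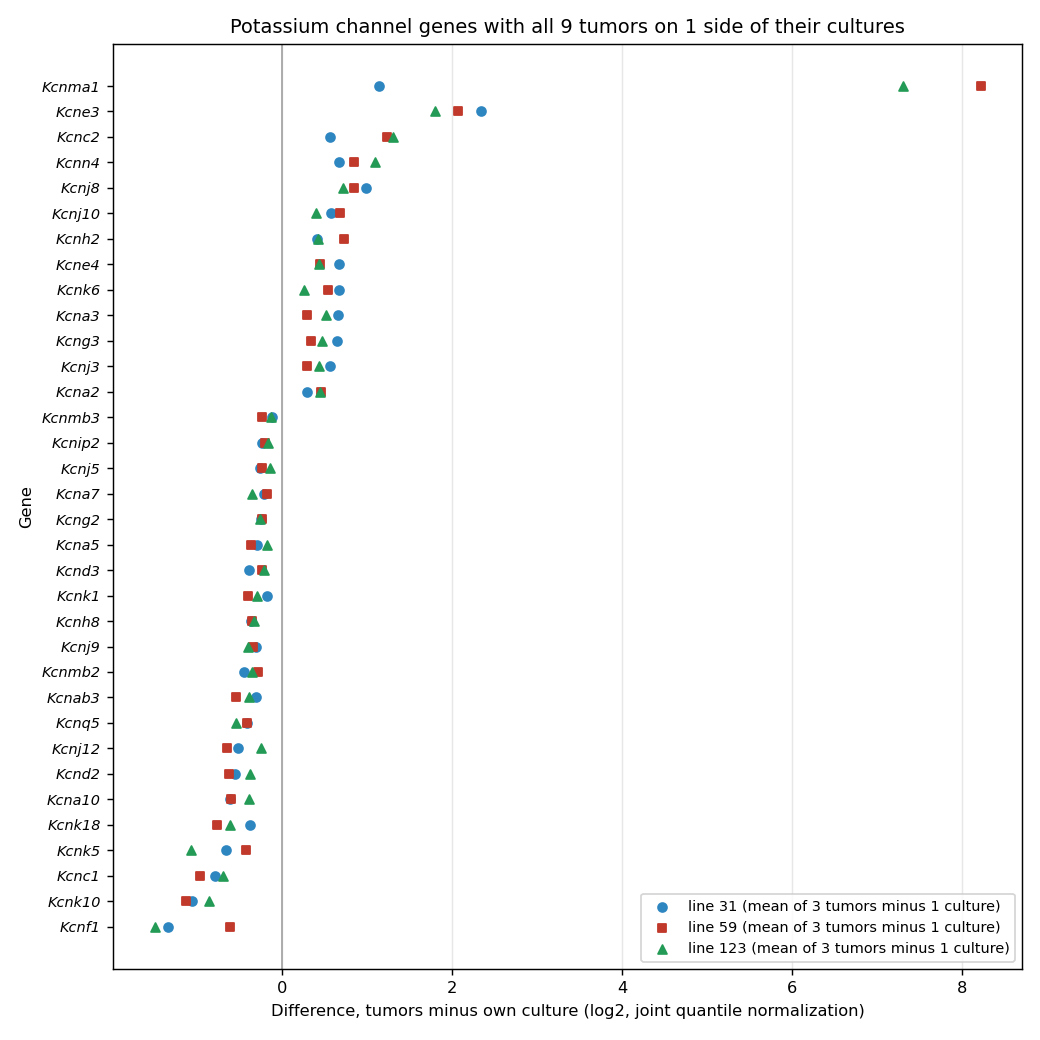
Difference of the mean of 3 tumors minus the culture of the same line (x axis, log2 after joint quantile normalization) for the 34 members in which all 9 tumors lay on 1 side (y axis), 1 point per line. Kcnma1, from the probe set taken by the rule, stands at 8.23 and 7.31 in lines 59 and 123 and at 1.14 in line 31; Kcne3 lies between 1.79 and 2.34, and every other member differs by less than Kcne3.

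Kcnma1 exceeded its culture by 1.14, 8.23 and 7.31 in lines 31, 59 and 123 on the probe set of the rule, with an SD over the 3 tumors of 1.31, 1.02 and 2.64. On the probe set with Kcnma1 transcripts the differences were 0.66, 0.52 and 0.66. Kcnmb2 and Kcnmb3 lay below culture in all 9 tumors, by 0.36 and 0.16 on average, and Kcnmb1 and Kcnmb4 were on both sides. Kcnmb1 and Kcnmb2 were above background on no array of the series. Several members above culture in these tumors, Kcne3, Kcnj8 and Kcne4, were also among the 5 that rose against SubQ tissue. Both comparisons use the same 9 tumors.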

How the data were processed

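RNA of 27 mouse samples had been hybridized to 1 Affymetrix array each. The deposited values are on the log2 scale, 1 for each probe set and array. Per the submitters' processing notes, RMA, GCOS and Affymetrix Expression Console were used. For the probes, a genome build is not given in the sources used here. Arrays have no read depth, and their number limits the precision.

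Of 34760 probe sets, 21640 listed with 1 gene were used, and 1321 with several genes and 11799 with none were left out. Of several probe sets of a gene, that of highest mean over the arrays was kept. Linear models were fitted with limma 3.58.1 (R 4.3.3), with empirical Bayes moderation and 2-sided p-values adjusted by Benjamini and Hochberg over 19937 genes, called at an adjusted p under 0.05, and the code was tested on simulated data. In the main tests no replicate numbers were used as blocks. Deviations of same-numbered samples from their group means correlated at 0.04 and 0.08 in the 2 pairs of a line and an NSC culture. In 30 tissue pairs they correlated at −0.28 to 0.34, with 3 pairs over 0.1. Tables and plots were made with Python 3.11.15, numpy 2.4.6, pandas 2.3.3 and matplotlib 3.10.9. Promoters came from RefSeq, GRCm38.p6.

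Members, lists, motifs and tests were chosen with earlier results of these data known. Named were Kcnma1 and its beta subunits, the called members with the largest changes (up to 12 each way for the first and the SubQ comparison, 8 for p53, 4 for a tumor line, 10 for cultures), members above background and up to 4 called genes per partner list. The members named under p53 beside Kcnma1 and its beta subunits, and the uncalled sensors Kcnip1, Kcnip2 and Kcnip4, were picked after their values were seen. Alternatives covered normalization, filters, probe sets, blocks, weights, subsets and leaving out each array.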

Additional observations from a re-analysis of the deposited data

Results flagged for a closer look

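Among 87 groups of lines looked at, over 29 genes, Dixon's criterion gave 11 flags for a line apart from the rest of its group. Chance marks about 1 in 20 independent groups. Here the groups overlap, since the 10 lines hold the p53 mutant and WT lines, and some genes were picked after their values were seen. The 11 flags can therefore not be set against that rate. Line 331 was apart on the low side in Kcnc1 (6.07), Kcnmb1 (5.34), Kcnmb3 (7.62) and Kcnc4 (6.61) among the 10 lines, and line 119 on the high side in Kcnip3 (8.17) and Kcnj16 (6.76). Line 59 was apart in Kcnn3 (8.31) among the 10 lines and among the 6 p53 mutant lines. Within the mutant lines, line 95 was high in Kcnma1 (6.25, on the probe set taken by the rule) and Kcnd3 (6.82), and line 116 was low in Kcnk5 (5.95).

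An unlisted probe set 4 numbers after the Kcnma1 probe set of the rule had a mean of 9.40 ± 1.26 (SD, n = 3) in tumors of line 59, against 5.69 to 6.15 in SubQ tissue, although no gene is listed for it. In tumors of line 123 it had 9.48, 5.21 and 10.95, in tumors of line 1 at most 5.05, and in tumors of line 31 at most 5.15.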

How the results depend on the processing

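Lines against NSCs gave 20 called members, all lower; the count was 4 among genes above the median level, 11 with an added 2-fold threshold, 13 with p53 WT lines alone, 13 with the replicate number as a block and 12 to 20 with 1 array left out, and 17 with p53 mutant lines alone. Only lines 3 and 28 share a replicate number with an NSC culture, so the change in the block setting rests on these lines alone. Tumors against SubQ tissue gave 70. The count was 12 among genes above the median level, 31 at 2-fold and 63 to 71 with 1 array left out. It was 54 after quantile normalization (8 higher, 46 lower), under which Kcne1, called at −0.42, turned to 0.56 (adjusted p = 0.0280). With tumor line as a random block it was 65, with 1 mean per tumor line 58 and with array quality weights 53. Of the 19937 genes, 14564, 13347 and 12072 were called in these 3 settings. The F test gave 5 with Kcnma1 counted, and 4 with its other probe set. It gave 3 among genes above the median level, 3 at 2-fold and 3 to 8 with 1 array left out. Line 1 gave 6, and 5 with the other Kcnma1 probe set, 2 at 2-fold and 1 to 7 with 1 array left out. Line 31 gave 0, and 1 with the mean of all probe sets, 1 among genes above the median level and 0 to 2 with 1 array left out. Line 59 gave 4, and 3 with the other Kcnma1 probe set. With 1 array left out, line 59 gave 1 to 4 and line 123, which gave 0, gave 0 to 1. The p53 comparison gave 0 in all alternatives run. The replicate block moved no count in the tissues by over 1.5 times. With the receptor 99th percentile as background, 4 members were above it in the lines, 19 in NSCs, 3 in the tumors and 0 in SubQ. In the same order, 39.1%, 45.0%, 34.5% and 2.68% of the other genes were.

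With the other Kcnma1 probe set its change turned to −1.15 in lines, −0.79 in tumors against SubQ tissue, 0.33 in line 1 and −0.35 in line 59. On deposited values 0 members had all 9 tumors above culture and 82 below, and the mean difference turned to −0.36 for Kcnc2, −0.62 for Kcnn4, −0.64 for Kcnj8, −0.92 for Kcnj10, −0.99 for Kcnh2, −0.97 for Kcne4, −1.03 for Kcnk6 and −1.05 for Kcna3; the tissue set lies lower there. The cause of the other changes was not tested.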
